A study of Mus musculus with 244 samples.

Results

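Primordial oocytes were compared with the somatic cells of primordial follicles under plate number 1 of the cell metadata. Cells of this plate number carried different plate codes, as given below. The members were the cells whose metadata gave plate number 1 and whose title gave the primordial stage, which were 5 of the 13 primordial oocytes and 19 of the 40 primordial somatic cells of the series, 24 cells or 9.84% of its samples. The series held single oocytes and single somatic cells of staged follicles, each read as a full-length cDNA library by SMART-Seq2. All came from ovaries of CD-1 mice at postnatal day 6, with no treatment or allele named in the labels. Ovaries of several animals were digested together with liberase and DNase I, follicles were staged by eye, and the primordial follicles were then taken apart in Accutase with a drawn pipette. No animal was named for a cell, so each cell type was 1 sample, and every difference below is a description with no test. Each plate number had its own set of listed genes.

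A primordial follicle is a resting oocyte enclosed by flattened somatic cells, the pre-granulosa cells, and the pool of these follicles sets how long an ovary can ovulate. The oocyte has stopped in the diplotene stage of meiotic prophase, and it stores transcripts and proteins for growth and for the early embryo under transcription factors such as Nobox, Figla, Sohlh1 and Sohlh2. The pre-granulosa cells hold the oocyte at rest or wake it through Kit ligand, which signals by way of the Kit receptor, PI3K and Foxo3 inside the oocyte, and in turn they need signals and junctions from the oocyte to become granulosa cells.

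The unit below is CPM, the count of a gene in a cell scaled to a common total of 1000000 counts a cell, with totals taken over the 18533 genes that had values on plate 1. Oocytes 1 to 5 held 135701, 488778, 491056, 554041 and 8352 counts, and the somatic cells held 22150 to 200258, median 63071. Summed over cells this gave 1677928 counts for the oocytes and 1526113 for the somatic cells. The log2 ratio is the log2 of the oocytes' summed CPM over that of the somatic cells, so positive values are higher in oocytes. Its 95% interval covers counting error only, not the spread between cells, and these reads carried no molecular identifiers. Where a group had no counts, its sum was set to 3 counts, which is 1.79 CPM over the oocytes and 1.97 CPM over the somatic cells, and the fold is a lower bound.

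Several cells stood apart from their group. Oocytes 2, 3 and 4 carried the time code 2 in the metadata, which all 49 secondary cells of the series carried, whereas oocytes 1 and 5 and the 19 somatic cells had the code 0. The same 3 oocytes also shared a plate code with 6 primary oocytes and with no somatic cell, and they held 91.4% of the oocytes' counts. Only oocyte 1 shared the plate code of the 19 somatic cells, and oocyte 5 was alone under a code of its own, so plate code and cell type could hardly be told apart. Many ratios and list medians are therefore also given without oocytes 2, 3 and 4, from oocytes 1 and 5 alone, whose 144053 counts were to 94.2% those of oocyte 1. In that sum 3 counts are 20.8 CPM, so a bound against it is weaker.

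Oocyte 1 had 17.9% mitochondrial reads and 27.9% intronic reads, against 1.38 to 2.53% and 8.82 to 10.8% in the other 4 oocytes. The somatic cells ranged from 1.63 to 11.4% mitochondrial and from 11.5 to 26.6% intronic reads. Oocyte 1 thus lay nearer to the somatic cells than to the other oocytes in its share of intronic reads, and above all of them in its mitochondrial share. Across the 4078 genes described below, the log2(CPM + 1) values of oocytes 2, 3 and 4 correlated with each other at 0.692 to 0.716, those of oocyte 5 with them at 0.494 to 0.517, and those of oocyte 1 with them at 0.252 to 0.277. Oocyte 1 correlated with the somatic cells at 0.171 to 0.228. These are Pearson correlations across genes, which are not independent replicates, and the cells also differed in depth.

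Among the somatic cells, cells 1 and 8 had reads of 10 and 12 of the 13 stroma markers listed on the plate, whereas the other 17 had reads of 0 to 3. The stroma markers, collagens and other genes of the fibroblasts between follicles, summed to 0 to 20034 CPM in the somatic cells, median 0, and to 0 to 94.1 CPM in the oocytes. Inha, the granulosa marker, was at 43.01 CPM in somatic cell 1 and at 814 CPM in cell 8, below the median of the 19 cells. Values without these 2 cells are also given for list medians, and for ratios printed below, that they moved by over 1.5 times. The part of these reads in each difference was not tested.

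**Figure D1:**
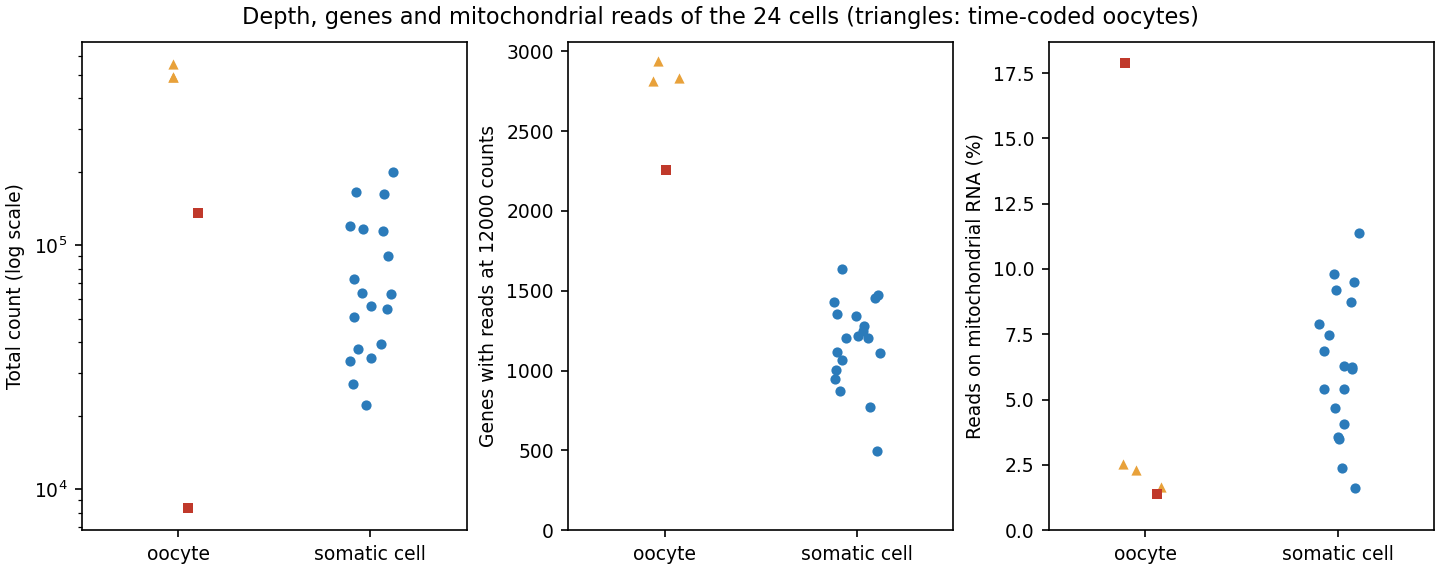
Total count (log scale), number of genes with reads after thinning to 12000 counts, and percent of reads on mitochondrial RNA (vertical axes of the 3 panels, left to right) for each oocyte and each of the 19 somatic cells, 1 point a cell. Triangles are the 3 oocytes of time code 2, squares the other oocytes (oocyte 5 is missing from the middle panel) and circles the somatic cells. The 4 thinned oocytes lie at 2254 to 2938 genes, above all somatic cells, and oocyte 1 lies at 17.9% mitochondrial reads.

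The oocytes held reads of more genes than the somatic cells. Oocytes had reads of 2485 to 5537 genes and somatic cells of 712 to 2545. With each cell thinned to 12000 counts, which left out oocyte 5, 4 oocytes had reads of 2254 to 2938 genes and the 19 somatic cells of 496 to 1636, so the groups did not overlap. Duplicate reads were 11.3 to 20.6% in oocytes and 15.8 to 53.6% in somatic cells, a range that overlapped only at its lower end, and the part of library complexity in these gene numbers was not tested.

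A gene was taken as read where 50% or more of the oocytes, or of the somatic cells, carried reads and the summed CPM of the same cells reached 20, which held for 4078 genes. Of these, 1431 (35.1%) were at least 4-fold higher in oocytes and 384 (9.42%) at least 4-fold higher in somatic cells. A gene that passed only through the group where it was high had to differ, so these counts describe the libraries and no more. The median log2 ratio of all read genes was 1.01, and each list median below is to be read beside it. The split depended on the scaling. With TMM factors (edgeR) the median moved to 2.22, the calls to 2295 genes (52.98% of those read) in oocytes and 3.81% in somatic cells, and the share of calls that were higher in oocytes from 78.8 to 93.3%. Every CPM of all 5 oocytes lay above every CPM of the 19 somatic cells for 4.02% of the read genes, and below for 3 genes (0.0736%), which were Nr4a1, Sparc and Fos.

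**Figure D2:**
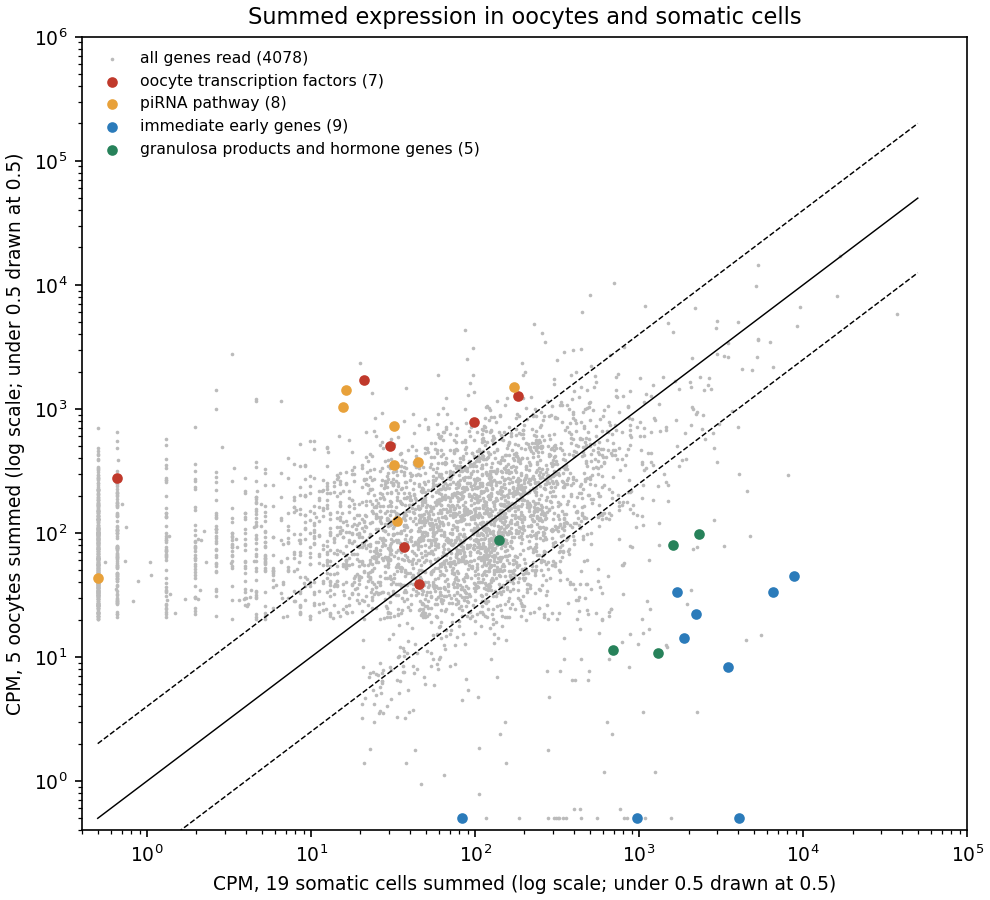
Summed CPM in the 19 somatic cells (horizontal, log scale) against summed CPM in the 5 oocytes (vertical, log scale) for the 4078 read genes, 1 point a gene, with 4 lists in color and values under 0.5 drawn at 0.5. The solid line is equality and the dashed lines the 4-fold limit, past which 1431 genes lie on the oocyte side and 384 on the somatic side.

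Of the 5 marker genes, Dazl, Kit and Nobox were higher in oocytes, and Inha and Foxl2 had their reads in somatic cells, as the labels of the cells say. Dazl, a germ cell RNA-binding protein that keeps stored mRNAs translated (chromosome 17, GRCm38), was at 420.0, 722, 747, 763 and 599 CPM in oocytes 1 to 5. In the somatic cells it was at 0 to 33.4 CPM, median 0, with reads in 1 of 19 cells, so every oocyte lay above every somatic cell and the log2 ratio was 8.51 (interval 6.96 to 10.79). Kit, the receptor for the somatic cells' Kit ligand, read 494, 2299.6, 3446, 2428 and 4190.4 CPM in the oocytes and 0 to 491 CPM, median 0, in the somatic cells, again without overlap, at a log2 ratio of 4.83 (interval 4.59 to 5.09). Nobox, a homeodomain factor that oocytes need to survive past the primordial stage, was at 184.2, 2246, 1957, 1415 and 1078 CPM in oocytes and at 0 to 266 CPM, median 0, in somatic cells. Oocyte 1 alone lay within the somatic range of Nobox, and the log2 ratio was 6.35 (interval 5.85 to 6.90).

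On the somatic side, Inha, the alpha subunit of inhibin, was at 22.1, 81.8, 71.3, 153.4 and 0 CPM in oocytes and had reads in 19 of 19 somatic cells, at 43.01 to 6457 CPM, median 2479.7. Its log2 ratio was -4.57 (interval -4.81 to -4.34), and only the somatic cell at the low end fell among the oocytes. Foxl2, the factor that keeps granulosa cells from taking on a testis fate, was at 0 in all 5 oocytes and had reads in 9 of 19 somatic cells, at up to 1357 CPM. It was short of the 50% of cells needed to count as read. Without the 3 time-coded oocytes the log2 ratios were 7.77 for Dazl, 2.99 for Kit, 3.49 for Nobox and -6.79 for Inha, so all 4 kept their direction. The study's methods took out oocytes with a high score of somatic markers and somatic cells with a high score of oocyte markers, and the contrast in the scored genes was in part fixed by that choice. The scored genes included Dazl, Nobox, Figla, Sohlh1, Ddx4, Dppa3, Sycp3 and Bmp15 for oocytes and Inha, Foxl2, Amhr2, Gatm, Wnt6 and Aldh1a2 for somatic cells. At each stage the whole series holds as many cells as the study kept after this filter, apart from a single primordial oocyte that is not among them.

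**Figure D3:**
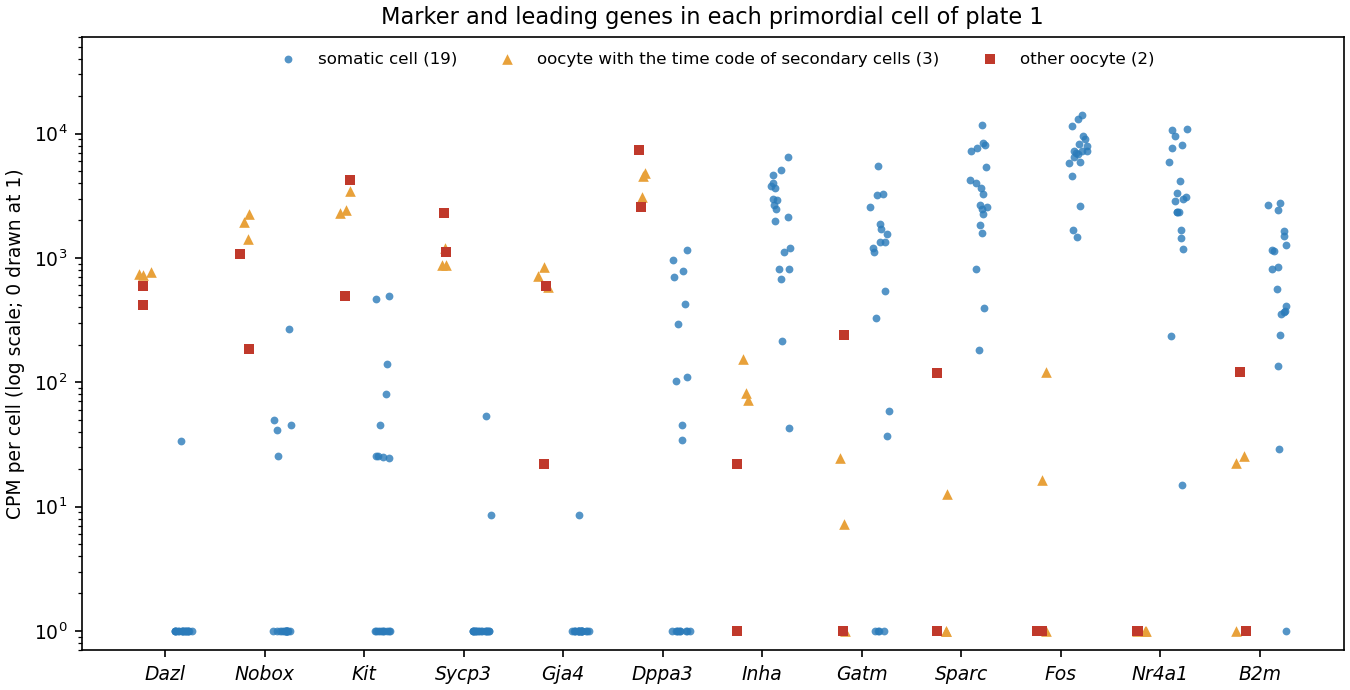
CPM per cell on a log scale (vertical, 0 drawn at 1) for named genes in the 5 oocytes and 19 somatic cells, 1 point a cell, with triangles for the 3 oocytes of time code 2, squares for the other oocytes and circles for somatic cells. Dazl is at 420.0 to 763 CPM in the oocytes and has reads in 1 of 19 somatic cells, and Fos is at 0 to 120.9 CPM in oocytes and at 1481 to 14197 CPM in somatic cells.

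The stretch just before the start of 6 of these genes is shown next, since Nobox and Figla are themselves DNA-binding factors and the E-box, CANNTG, is the motif known to be bound by Figla and by Sohlh1 and Sohlh2. Each line gives 150 bases before the RefSeq start site in the direction of the gene, from the RefSeq promoter table on GRCm38.p6, with every E-box on either strand in capitals. The first 4 genes were higher in oocytes and the last 2, Gatm and Erbb2, in somatic cells.
Nobox, chr6:43309555-43309704, minus strand: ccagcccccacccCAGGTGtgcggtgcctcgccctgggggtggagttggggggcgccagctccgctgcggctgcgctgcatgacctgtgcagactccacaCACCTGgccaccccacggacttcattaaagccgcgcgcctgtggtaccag
Sycp3, chr10:88459437-88459586, plus strand: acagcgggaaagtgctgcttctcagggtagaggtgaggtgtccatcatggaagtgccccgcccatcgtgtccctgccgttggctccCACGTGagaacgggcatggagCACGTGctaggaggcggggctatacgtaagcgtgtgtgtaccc
Khdc1b, chr1:21383406-21383555, plus strand: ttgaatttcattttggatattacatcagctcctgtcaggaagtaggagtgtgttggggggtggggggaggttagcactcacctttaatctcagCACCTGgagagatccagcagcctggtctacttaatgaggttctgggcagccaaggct
Gdpd1, chr11:87074138-87074287, minus strand: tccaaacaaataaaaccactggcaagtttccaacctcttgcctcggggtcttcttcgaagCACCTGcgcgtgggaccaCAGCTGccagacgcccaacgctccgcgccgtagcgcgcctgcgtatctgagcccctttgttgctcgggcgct
Gatm, chr2:122611278-122611427, minus strand: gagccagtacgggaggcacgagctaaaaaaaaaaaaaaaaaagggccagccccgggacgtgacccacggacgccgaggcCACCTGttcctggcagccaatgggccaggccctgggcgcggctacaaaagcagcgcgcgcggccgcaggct
Erbb2, chr11:98412334-98412483, plus strand: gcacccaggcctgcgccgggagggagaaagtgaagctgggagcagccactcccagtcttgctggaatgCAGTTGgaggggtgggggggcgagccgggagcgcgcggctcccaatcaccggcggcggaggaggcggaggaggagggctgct

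Nobox, Sycp3 and Gdpd1 each held 2 E-boxes in these 150 bases, and Khdc1b, Gatm and Erbb2 held 1 each. The motif was not particular to the oocyte genes. In windows of 300 bases around the start, 62.5% of the 40 matched promoters among the 50 genes highest in oocytes held an E-box, as did 67.6% of 34 among the 50 genes highest in somatic cells and 72.2% of all 27025 promoters. The homeodomain motif TAATTA was in 0 of 40 and 0 of 34 promoters and in 5.31% of all. The AP-1 motif TGANTCA, bound by Fos and Jun, was in 7.5% of the oocyte set, 8.82% of the somatic set and 7.93% of all. AGATAA, bound by GATA factors, was in 5% and 5.88% against 11.4% of all, and the nuclear receptor motif AAGGTCA in 10% and 2.94% against 4.66%. The cAMP response element TGACGTCA was in no promoter of either set, in 2 of 17 promoters of immediate early genes and in 1.88% of all. Both strands were searched. A match is a string of letters in a window, and no match says nothing of the factor.

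The 15 genes with the highest log2 ratio among the read genes, leaving out clone names, included Gdpd1, Rab3d, Sycp3, Dazl, Ippk, Gja4, Necap2, Siah1b, Ccno, Tldc1, Khdc1b, Cd9, Fam160a1 and Cpsf4l. The 15 had reads in 0 to 2 of the 19 somatic cells. Gdpd1, a lipid-cleaving phosphodiesterase of chromosome 11, was at 2144, 3378, 3199, 1933 and 2394 CPM in oocytes and at 0 to 34.2 CPM, median 0, in somatic cells. This was a log2 ratio of 9.71 (interval 8.49 to 11.33), and oocyte 1 was as high as the rest. Rab3d, a small GTPase of secretory vesicles, was at 235.8, 1968, 1393, 1269 and 1796 CPM against 0 to 89.6 CPM, median 0, so that oocyte 1 was the lowest oocyte but above every somatic cell. Gja4, the connexin of the gap junctions on the oocyte's side, showed the same pattern at 22.1, 712, 845, 581 and 599 CPM against 0 to 8.55 CPM, median 0. Its somatic sum rested on 1 count, and its log2 ratio was 9.96 (interval 7.48 to 15.26).

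Ippk, the kinase that makes inositol hexakisphosphate, was at 73.7, 885, 686, 717 and 838 CPM in oocytes and had no read in any somatic cell, so it was at least 359-fold higher in oocytes. Cpsf4l was at least 231.6-fold higher, at 339, 454, 367, 565 and 359 CPM against 0 of 19 cells. Fam160a1 was at least 245.3-fold higher in the sum, but oocyte 1 held no read of it. Ccno, a cyclin-related protein of oocytes and ciliated cells, was at 339, 1144, 1639, 1085 and 1676 CPM against 0 to 51.3 CPM, median 0, a log2 ratio of 8.04 (interval 6.99 to 9.36). Cd9, the egg surface protein needed for sperm fusion, was at 205.1, 550.4, 450.1, 539.7 and 239.5 CPM against 1 somatic cell at 18.2 CPM. Siah1b and Fam160a1 were the only ones of the 15 that overlapped with the somatic cells, through the 7.37 CPM of oocyte 1 in Siah1b and its 0 in Fam160a1. Without the time-coded oocytes the log2 ratio was 9.36 for Gdpd1 and 8.81 for Sycp3, close to the values with all 5 oocytes. It was lower at 6.96 for Rab3d, 6.41 for Gja4, 5.85 for Khdc1b and 6.50 for Ccno, still past the limit. Fam160a1 then had at most 3 counts in each group and no ratio.

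Of the oocyte transcription factors, 14 of 17 were on the plate and 7 were read, of which 5 were at least 4-fold higher in oocytes and none in somatic cells. Their median log2 ratio was 2.99, and 3.11 without the time-coded oocytes. Figla, the E-box factor of the zona pellucida genes, was at 508, 456, 491, 552 and 359 CPM in oocytes and at 0 to 580.5 CPM, median 0, in somatic cells, with reads in 3 of 19 of these. The 5 oocytes were close to each other, 1 somatic cell was above them, and the log2 ratio was 4.06 (interval 3.63 to 4.52). Sohlh2, a partner of Sohlh1, was at 287, 338, 226.04, 269 and 119.7 CPM against a single somatic cell at 8.31 CPM, a log2 ratio of 8.72 (interval 6.24 to 14.03). Sohlh1 itself had reads in 8 of 19 somatic cells, at 0 to 1350.3 CPM, median 0, so its oocyte values of 671, 1354, 1057, 1545 and 1916 CPM overlapped with theirs and its log2 ratio was only 2.80 (interval 2.62 to 2.98). Foxo3, the factor that holds oocytes at rest while it is in the nucleus, was at 648, 606, 963, 823 and 718 CPM in oocytes and 0 to 530.0 CPM, median 0, in somatic cells, without overlap, at 2.99 (interval 2.75 to 3.24). Obox1 and Obox6 had no read in either group, and Taf7l, Obox2, Obox3, Obox5 and Sox30 were not read.

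Among genes of germ cell RNA storage and translation, 5 of the 8 on the plate were read, and Dazl, Ddx4, Btg4 and Rbpms2 were past the limit on the oocyte side, with Eif4enif1 within it and a list median of 2.74. The piRNA pathway, silences transposons with small RNAs. Of its 11 members on the plate 8 were read and 7 were at least 4-fold higher in oocytes, with a median of 3.96. Tdrd1, a Tudor scaffold of the pathway, was at 324, 649, 1234, 1364 and 1796 CPM in oocytes and 0 to 133.2 CPM, median 0, in somatic cells, without overlap and at a log2 ratio of 6.04 (interval 5.46 to 6.69). Tdrd9, a helicase, was at 811, 458, 2024, 1920.4 and 1197 CPM against 1 somatic cell at 926 CPM, at 6.45 (interval 5.88 to 7.08).

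In this group oocyte 1 differed most from oocytes 2 to 5. Ddx4, the Vasa helicase that marks germ cells, was at 7.37, 448, 289, 419 and 239.5 CPM, and Mael, a piRNA factor of the nuage, at 22.1, 1123, 1737, 1948 and 1676 CPM, so both were near 0 in oocyte 1 and high in the other 4. Their log2 ratios of 3.47 and 3.12 turned to -0.62 and -0.54 without the time-coded oocytes, since oocyte 1 then made up the sum, while oocyte 5 was at 239.5 and 1676 CPM. The list median went from 3.96 to 1.90.

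The subcortical maternal complex lies under the egg membrane and is needed for the first cleavages. All 4 of its read members, of 5 on the plate, were past the limit, with a median of 3.43 and of 3.19 without the time-coded oocytes. Ooep was at 2513, 3292, 2109.7, 1624 and 1556 CPM in oocytes and had reads in 9 of 19 somatic cells, at 0 to 740.5 CPM, median 0. All oocytes lay above all somatic cells, at a log2 ratio of 3.59 (interval 3.42 to 3.77). Tle6 was at 1805, 2510.3, 692, 2417 and 1796 CPM against 0 to 1066 CPM, median 0, with reads in 7 of 19 somatic cells and a log2 ratio of 3.26 (interval 3.09 to 3.43), and oocyte 3 overlapped with the top somatic cell. Khdc3, another subunit, was at 7.37, 33.96, 58.4, 107.5 and 0 CPM in oocytes and at up to 294 CPM in 2 somatic cells, and its log2 ratio of 3.004 turned to -0.18 without the time-coded oocytes.

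With all 5 oocytes, tandem gene families of the oocyte gave the highest list median among the lists with more than 3 read members. Without the time-coded oocytes this rank was lost, as the survival and DNA damage list had a median of 4.335. All 7 members of the Oas1 and Khdc1 families on the plate were read, 5 were at least 4-fold higher in oocytes and none in somatic cells, and the median was 5.80, or 3.50 without the time-coded oocytes. Members of such families share sequence, and counting could split or shift reads among them, so the family is firmer than each member. Khdc1a was at 307, 269.6, 15.1, 539 and 1044 CPM in oocytes and had no read in somatic cells, at least 148.1-fold higher. Khdc1b was at 198.97, 1520.4, 727, 1475 and 1317 CPM against 2 somatic cells with reads, at 7.99 (interval 6.94 to 9.31), and Khdc1c was at least 59.01-fold higher with no somatic read. Of the Oas1 genes, relatives of an antiviral enzyme that oocytes express, Oas1d was at 232.6, 2036, 2471, 1636 and 1979 CPM in oocytes and 0 to 1881 CPM, median 0, in somatic cells, at 4.29 (interval 4.05 to 4.54). Oas1c was spread over both cell types, at 339, 1959, 2255, 1766 and 1613 CPM in oocytes and at 0 to 3594 CPM, median 0, in somatic cells with 7 of 19 carrying reads, so its log2 ratio was 1.78 (interval 1.67 to 1.90) and fell inside the limit.

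The NLRP genes of the oocyte, a further tandem family, had 8 members on the plate and 3 read, Nlrp4c, Nlrp4f and Nlrp14, all past the limit, with a median of 4.99 that was 2.81 without the time-coded oocytes. Nlrp14, a gene needed by the egg for early cleavage, was at 1009.6, 2054, 5836, 5778 and 8141 CPM in oocytes and at 0 to 2148 CPM, median 0, in somatic cells, at 5.64 (interval 5.39 to 5.90). Oocyte 1 was the lowest oocyte, and only oocytes 1 and 2 lay within the somatic range, below its top cell. Nlrp9a and Nlrp9c had no read in any of the 24 cells, and Nlrp5 was not on the plate.

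Genes of the egg coat and of oocyte growth factors were few on this plate, 4 of 11, since Zp2, Zp3 and Gdf9 had no values there. The 2 read had a median of 5.23, and of 2.24 without the time-coded oocytes. Zp1, a zona pellucida protein, was at 154.8, 1139.6, 319.7, 1078 and 479 CPM against 0 to 222.3 CPM, median 0, at 4.44 (interval 4.05 to 4.85). Bmp15, which growing oocytes send to granulosa cells, was at 0, 6.14, 30.5, 95.7 and 0 CPM, and its log2 ratio of 6.01 (interval 3.49 to 11.34) rested on 1 somatic count. The oocytes were thus uneven in Bmp15, with the highest value in oocyte 4 and no read in oocytes 1 and 5.

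Meiotic prophase genes had 12 of 27 members on the plate and 6 read, 4 of them at least 4-fold higher in oocytes, with a median of 3.65 and of 2.92 without the time-coded oocytes. Sycp3, of the axis of the synaptonemal complex, was at 1105, 884, 1199.5, 883 and 2275 CPM in oocytes and 0 to 53.2 CPM, median 0, in somatic cells, at 8.58 (interval 7.22 to 10.45). Oocytes 1 to 4 were close to each other and oocyte 5 was the highest. Smc1b, the meiotic cohesin that holds sister chromatids together during the long arrest, was at 1061, 595, 725, 561 and 838 CPM against 0 to 314 CPM, median 0, at 4.77 (interval 4.30 to 5.28). Mlh3, of the mismatch repair pair that makes crossovers, had a log2 ratio of 6.51 (interval 3.996 to 11.82) on 1 somatic count. Syce2 and Tex14 were within the limit at 0.75 and 0.25. Genes of the start and early steps of meiosis were near or at 0 in oocytes: Stra8 and Rec8 had no count in any oocyte, Spo11 2 and Dmc1 3.

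For meiotic arrest and resumption, all 9 members on the plate were read and 5 were past the limit on the oocyte side, with a median of 2.13. This list turned on few cells. Without the time-coded oocytes its median was -0.11, and without the 2 somatic cells with most stroma markers it was 5.25. Ccnb1, the cyclin of the kinase that drives entry into M phase, was at 88.4, 941, 527, 651 and 958 CPM in oocytes and at 0 to 1292 CPM, median 0, in somatic cells, of which 3 of 19 held reads. Its log2 ratio was 2.12 (interval 1.92 to 2.34), -0.11 without the time-coded oocytes and 5.32 without those 2 somatic cells. Wee2, the oocyte kinase that keeps that cyclin complex off, was at 29.5, 155.5, 91.6, 151.6 and 239.5 CPM against 1 somatic cell at 8.55 CPM, at 7.58 (interval 5.09 to 12.89). Fbxo43, an inhibitor of cyclin destruction, was at 81.1, 204.6, 40.7, 61.4 and 0 CPM and at least 50.02-fold higher in oocytes, and Mos, the kinase of the second arrest, was at least 28.8-fold higher but had reads in oocytes 2, 3 and 4 alone.

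The oocyte chromatin and DNA methylation list had 6 of 18 members on the plate. All were read, 5 were past the limit on the oocyte side, and the median was 3.77, or 3.56 without the time-coded oocytes. Dppa3, also called Stella, which shields the maternal genome's methylation, was at 2587, 4521, 3095, 4803 and 7423 CPM in oocytes. It had reads in 10 of 19 somatic cells at 0 to 1148 CPM, median 34.2, all below the oocytes, and its log2 ratio was 3.98 (interval 3.84 to 4.14). Uhrf1, which reads hemimethylated DNA, was at 1175, 2363, 2705, 4605 and 1796 CPM against 0 to 523 CPM, median 0, at 4.99 (interval 4.76 to 5.24). Kdm1b, the demethylase needed for maternal imprints, was at 604, 2779, 2865, 1868 and 2155 CPM against 0 to 759 CPM, median 0, at 6.86 (interval 6.37 to 7.46), with oocyte 1 inside the somatic range. H1foo, the oocyte linker histone, had a log2 ratio of 3.56 (interval 3.12 to 4.03), which was 7.07 without the 2 stroma-marker cells. Tet2, which oxidizes methylcytosine, was alike in both sums at 306 CPM and 343 CPM.

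Genes of survival and DNA damage lay mostly on the oocyte side. Of 10 on the plate 6 were read, 5 at least 4-fold higher in oocytes and 1 in somatic cells. Of all read genes 35.1% and 9.42% were so. The list median was 4.67, and 4.335 without the time-coded oocytes. Chek1 was at 0, 100.2, 138.5, 200.3 and 0 CPM in oocytes and Chek2, the checkpoint kinase that removes damaged oocytes, at 58.95, 175.9, 393, 241.9 and 0 CPM. Chek1 was at least 69.1-fold higher with no somatic read, and Chek2 had a log2 ratio of 3.94 (interval 3.35 to 4.58). Bcl2l10, an oocyte member of the Bcl2 family, was at 7.37, 112.5, 95.7, 19.9 and 119.7 CPM and at least 34.9-fold higher. Mcl1, another member of that family, was at 58.95, 40.9, 8.15, 1.8 and 0 CPM in oocytes against 0 to 1127 CPM, median 29.02, in somatic cells, at -3.37 (interval -3.93 to -2.85). In the Kit, PI3K and mTOR list, 8 of 21 members were on the plate, which lacked Kitl. Kit and Foxo3 were past the limit, and Tsc2, Pik3r1 and Foxo1 were within it at 1.05, -0.87 and -0.57, for a median of 1.05. As a list this was near all read genes, whose median was 1.01 and of which 35.1% were past the limit on the oocyte side.

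On the somatic side, the 15 genes with the lowest log2 ratio were Nr4a1, Fras1, Bmp1, Anxa2, Arhgef17, Socs3, Arxes2, Erbb2, Rgs11, Ier2, Thbs1, Adamts9, Sparc, Adamts16 and Timp3. They had reads in 10 to 19 of the 19 somatic cells. Thbs1, thrombospondin 1, a protein of the extracellular matrix, was at 0 to 29487 CPM, median 5869, in somatic cells with 18 of 19 carrying reads, and at 0, 0, 0, 45.1 and 0 CPM in oocytes. Its log2 ratio was -8.54 (interval -9.17 to -7.98), and 1 somatic cell without reads was the only overlap with the 4 oocytes at 0. Without the time-coded oocytes no oocyte count was left, and the log2 ratio of -8.06 is a bound. Anxa2, a membrane-binding annexin, was at 0 to 4430.1 CPM, median 1404, in somatic cells against 0, 4.09, 8.15, 0 and 0 CPM in oocytes, at -9.30 (interval -10.75 to -8.17). Fras1, a basement membrane protein of epithelia, had no read in any oocyte and reads in 12 of 19 somatic cells, at 0 to 7336 CPM, median 1046, which made it at least 874-fold higher in somatic cells. Erbb2, the co-receptor of the EGF family, also had no oocyte read and reads in 11 of 19 somatic cells, at least 454-fold higher. Bmp1, Adamts9 and Adamts16, proteases of the matrix, and Timp3, which inhibits such proteases, had reads in 12 of 19, 10 of 19, 12 of 19 and 10 of 19 somatic cells and at most 10.8 CPM in any oocyte.

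Granulosa products and hormone genes had 17 members on the plate, 5 read and 4 of these at least 4-fold higher in somatic cells, with a median of -4.57 and of -5.80 without the time-coded oocytes. Amhr2, the receptor of anti-Mullerian hormone, was at 0 to 2889.8 CPM, median 485, in somatic cells with 15 of 19 carrying reads, and at 0, 38.9, 0, 0 and 0 CPM in oocytes, a log2 ratio of -5.93 (interval -6.66 to -5.28). Gatm, the first enzyme of creatine synthesis, was at 0 to 5446 CPM, median 1202, against 0, 24.6, 0, 7.22 and 239.5 CPM, at -6.93 (interval -7.69 to -6.26). The 239.5 CPM of oocyte 5 were 2 counts. Without the time-coded oocytes the log2 ratio was -5.05 for Amhr2, a bound with no oocyte count, and -6.56 for Gatm, which rested on those 2 counts. Aldh1a1, which makes retinoic acid, had reads in 16 of 19 somatic cells at 0 to 9293 CPM, median 749, and the oocytes were at 206.3, 6.14, 48.9, 140.8 and 0 CPM, a log2 ratio of -4.34 (interval -4.60 to -4.09). Of the hormone genes of later granulosa cells, those at 0 in all 19 somatic cells were Amh, the hormone of growing follicles, Fshr, the receptor for follicle-stimulating hormone, and the steroid enzymes Cyp19a1 and Cyp11a1. Others of the list had reads in a few somatic cells and in no oocyte, Hsd17b1, another steroid enzyme, in 4 cells at up to 1152 CPM, Star, which brings cholesterol into mitochondria, in 2 at up to 1216 CPM, and Inhbb, an activin and inhibin subunit, in 2 at up to 94.04 CPM. The zeros of Amh did not hold on plate 5, where 12 of 21 primordial somatic cells had reads of it, at 163.7 CPM in their sum. Fshr and Cyp11a1 had no read in those cells either.

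The factors of granulosa identity were sparse in single cells. Of 11 on the plate 2 were read, Nr5a1 and Sox4, with a median of -5.09 that was -1.55, within the limit, without the time-coded oocytes. Nr5a1, a nuclear receptor of steroidogenic tissue, had no read in oocytes and reads in 10 of 19 somatic cells, at least 103.7-fold higher there. Gata4 had reads in 8 of 19 somatic cells at up to 2401 CPM and in no oocyte, but had reads in too few cells to be taken as read, as did Foxl2. Sox4 was at 169.5 CPM in oocyte 1 and at 0 in the other 4 oocytes, so its log2 ratio of -3.49 became 0.05 without the time-coded oocytes. In the WNT list 1 of 13 members on the plate was read, Axin2 at -0.53. The members that were read changed with the cells, and the list median was 2.28 without the time-coded oocytes and -4.03 without the 2 stroma-marker cells. Wnt6, a pre-granulosa ligand, had reads in 9 of 19 somatic cells and in no oocyte.

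Receptors and Smads of the TGF-beta family transmit the signals that oocyte and somatic cells send each other. Of 7 on the plate 5 were read, with a median of -3.30 and of -3.15 without the time-coded oocytes. Smad3 was at 0 to 9851 CPM, median 407, in somatic cells and at 0, 114.6, 107.9, 162.4 and 119.7 CPM in oocytes, at -3.47 (interval -3.69 to -3.26). Acvr1b, an activin receptor, was the member on the oocyte side, at 0, 32.7, 34.6, 41.5 and 0 CPM with no somatic read, at least 16.98-fold higher. Of 5 BMP targets on the plate 2 were read. Id3 was at 0, 51.1, 34.6, 21.7 and 0 CPM in oocytes against 0 to 4591 CPM, median 0, at -4.64 (interval -5.06 to -4.24), and Bambi had a log2 ratio of -3.30. The median of this list reversed from -3.97 to 1.63 without the time-coded oocytes, since then other members passed as read. Id4, at 29.5 CPM in oocyte 1 and with no read in any other cell, came in, and Id3 dropped out.

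Notch signals pass from the oocyte's ligand to the receptor on pre-granulosa cells. Jag2, a ligand, was at 840.1, 348, 301, 269 and 1078 CPM in oocytes and had reads in 2 of 19 somatic cells, at a log2 ratio of 4.11 (interval 3.59 to 4.68). Notch2, the receptor, was at 0 to 5398 CPM, median 30.7, in somatic cells and at 14.7, 2.05, 71.3, 16.2 and 119.7 CPM in oocytes, at -3.89 (interval -4.35 to -3.47). Heyl, a Notch target, was at 0 in the oocytes and had reads in 9 of 19 somatic cells, one short of the share that counts as read. These 2 read members of 14 on the plate lay on opposite sides, so their median of 0.11 describes neither. Without the 2 stroma-marker cells it was -3.90.

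Gap junctions, adhesion and matrix join the 2 cell types. Gja1, the connexin between granulosa cells, was at 0 to 1846 CPM, median 25.2, in somatic cells and 0, 8.18, 18.3, 99.3 and 0 CPM in oocytes, at -3.23 (interval -3.61 to -2.86), opposite in side to Gja4. Itga6, an integrin that binds laminin, was at 0 to 4351 CPM, median 1132, against 22.1, 0, 4.07, 64.98 and 0 CPM, at -5.57 (interval -6.05 to -5.12). Epcam, an epithelial adhesion protein that oocytes also carry, was higher in oocytes at 169.5, 497, 234.2, 305 and 838 CPM against 0 to 368 CPM, median 0, at 2.11 (interval 1.82 to 2.41). It was the only one of 9 surface epithelium markers on the plate that was read, and Krt19, Msln and Muc16 were at 0 in all cells.

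Basement membrane genes encode the sheet that encloses the follicle. Of 7 on the plate 6 were read, 4 at least 4-fold higher in somatic cells, with a median of -4.98, of -5.09 without the time-coded oocytes and of -3.95 without the 2 stroma-marker cells. Sparc, a collagen-binding matrix protein, was at 180.6 to 11718 CPM, median 3258, in the 19 somatic cells and at 117.9, 0, 0, 12.6 and 0 CPM in oocytes, so that every oocyte lay below every somatic cell, at -8.35 (interval -9.01 to -7.76), or -5.33 without the time-coded oocytes. Lama1, a laminin chain, was at 0 to 10679 CPM, median 377, against 0, 10.2, 0, 0 and 0 CPM, at -7.74 (interval -9.37 to -6.52). Col4a2 and Hspg2, a collagen IV chain and perlecan, had log2 ratios of -5.91 (interval -6.59 to -5.31) and -4.06 (interval -4.32 to -3.80). Lama2, another laminin chain, went the other way once the 2 stroma-marker cells were left out, from -1.63 to 2.64, and Lamb1 went from -1.01 to 0.38.

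Immediate early genes, the transcription factors and feedback proteins that cells switch on first after a stimulus, stood furthest to the somatic side of all lists. Of 16 on the plate 9 were read, all at least 4-fold higher in somatic cells, with a median of -7.61 and of -6.75 without the time-coded oocytes. Fos was at 1481 to 14197 CPM, median 7282, in somatic cells and at 0, 16.4, 0, 120.9 and 0 CPM in oocytes, so the groups did not overlap, at -7.61 (interval -7.96 to -7.29). Jun, its partner in AP-1, was at 35.5 to 19554 CPM, median 4336, in somatic cells with 19 of 19 carrying reads, and at 0, 16.4, 38.7, 50.5 and 119.7 CPM in oocytes, at -7.63 (interval -8.03 to -7.25). Nr4a1, an orphan nuclear receptor, was at 14.98 to 10895 CPM, median 2988, in somatic cells and at 0 in every oocyte, at least 2267-fold higher in somatic cells. Ier2 had a log2 ratio of -8.70 (interval -9.57 to -7.95), Junb of -6.66 (interval -7.17 to -6.20) and Btg2 of -5.67 (interval -6.07 to -5.28). Socs3, a brake on cytokine signals, was at least 540.2-fold higher in somatic cells, with no oocyte read. Without the time-coded oocytes Fos had no oocyte count, so its log2 ratio of -8.72 there is a bound. Those of Jun and Ier2, -9.89 and -8.96, each rested on 1 count in oocyte 5. These values are therefore not to be ranked against each other or against those with all 5 oocytes.

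The 7 immediate early genes that were not read also had their reads in somatic cells. Egr2, Egr3, Atf3, Ier3, Klf2 and Klf4 had no count in any oocyte and Myc had 10, while 2 to 9 of the 19 somatic cells held reads. The list summed to 4591 to 46107 CPM in single somatic cells and to 22.1 to 253 CPM in single oocytes. The paper cautions that early responses of this kind may arise while cells are isolated. Its scores of dissociation-related genes were comparable across stages and much lower in oocytes. The part of isolation in the contrast of these genes was not tested here. Heat shock genes lay on both sides. Of 6 on the plate 4 were read. Hsph1 was higher in oocytes at 3.15 (interval 2.84 to 3.46), Dnajb1 higher in somatic cells at -2.73 (interval -2.91 to -2.55), and Hspd1 and Hspe1 were within the limit at 1.90 and -0.55, for a median of 0.68. Hspa1a and Hspa1b, the inducible heat shock proteins, were not read but had reads in 6 somatic cells each, at up to 2299 and 1166 CPM, against at most 45.01 and 22.6 CPM in an oocyte.

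Antigen presentation genes of MHC class I and the Ifitm family had 8 members on the plate and 3 read, all past the limit on the somatic side, with a median of -6.08. B2m, the light chain of MHC class I, was at 0 to 2769 CPM, median 807, in somatic cells with 18 of 19 carrying reads, and at 0, 22.5, 0, 25.3 and 119.7 CPM in oocytes, at -6.08 (interval -6.70 to -5.53). H2-D1, a heavy chain that belongs to a family of close relatives, was at 0 to 4838 CPM, median 306, against 0, 33.9, 8.55, 9.1 and 0 CPM, at -5.84 (interval -6.45 to -5.28). Ifitm2 had a log2 ratio of -7.27 (interval -9.56 to -5.72). The unread Tap1, Tap2, Psmb9 and Nlrc5 had no count in any oocyte.

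The ribosomal, mitochondrially encoded, respiratory chain and glycolysis lists had medians within the limit when all 5 oocytes were used. Ribosomal proteins had 29 read genes of 30 on the plate, 8 of them at least 4-fold higher in somatic cells, 1 in oocytes and 20 within the limit. Of all read genes, 9.42% were past the limit in somatic cells and 35.1% in oocytes. The list median was -1.27, below the 1.01 of all read genes, and ranged from -1.32 to -0.06 over all settings and scalings tried. Rpl38 was at 88.4 to 4100.3 CPM, median 243.8, in somatic cells and 95.8, 8.9, 30.5, 28.6 and 0 CPM in oocytes, at -3.84 (interval -4.30 to -3.42). Rpl10l was the exception. This germ cell copy of Rpl10 was at 302, 42.96, 116.1, 133.6 and 239.5 CPM in the oocytes and had no read in any somatic cell, at least 59.1-fold higher in oocytes. Many ribosomal protein genes have processed copies, and counting could split their reads.

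The 10 read mitochondrially encoded genes had a median of -0.87, all within the limit, but 1.24 without the time-coded oocytes, so their side turned with oocyte 1. mt-Co1, a subunit of cytochrome oxidase, was at 26662, 7688, 4434, 7497 and 3182 CPM in oocytes 1 to 5 and at 3499 to 67312 CPM, median 18595, in somatic cells. Nuclear genes of the respiratory chain were near even, with 34 of 38 read genes within the limit and a median of -0.05, which was 0.65 without the time-coded oocytes. Ndufv1, of complex I, was at 81.1, 1123, 1085, 991 and 718 CPM against 0 to 1268 CPM, median 0, at 2.995 (interval 2.78 to 3.22), yet at -0.06 without the time-coded oocytes. Cox8c, a tissue-restricted oxidase subunit, had reads in 4 oocytes, at 191.6, 10.2, 6.11, 16.2 and 0 CPM, and in no somatic cell.

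In glycolysis 8 of 9 read genes were within the limit, with a median of 0.67 that turned to -2.07 without the time-coded oocytes. Aldoa was at 0, 526, 623, 799.5 and 119.7 CPM and Gpi1 at 22.1, 1465, 1504, 1238 and 359 CPM in oocytes, so oocyte 1 was low in both, against 0 to 3018 CPM, median 449, and 0 to 2313 CPM, median 466, in somatic cells. Ldhb, the lactate dehydrogenase subunit suited to turning lactate to pyruvate, was at 2233, 5431, 4036, 5929 and 2634 CPM in oocytes and 0 to 10071 CPM, median 685, in somatic cells, at 1.71 (interval 1.64 to 1.77), within the limit. Cholesterol synthesis had 4 read genes of 6 on the plate, Fdft1 and Lss past the limit on the oocyte side at 3.79 and 4.95, and a median of 2.58. Without the time-coded oocytes the median was 1.12, beside 1.11 for all genes read there.

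Cell cycle genes were uneven within both groups. Of 10 read, 4 were past the limit on the oocyte side and 1, Mki67, the marker of dividing cells, on the somatic side. These shares were near the 35.1% and 9.42% of all read genes, and the list median of 1.27 was near their 1.01. Without the 2 stroma-marker cells the list median was 3.30. Mki67 had reads in 2 of 19 somatic cells, at up to 3882 CPM, and was at 0, 16.4, 54.98, 97.5 and 119.7 CPM in oocytes. Top2a, which untangles replicated DNA, had reads in 3 of 19 somatic cells and a log2 ratio of -1.997. Mcm5, of the replicative helicase, was at 66.3, 516, 766, 507 and 239.5 CPM against 0 to 79.9 CPM, median 0, at 5.71 (interval 5.001 to 6.52), or 7.73 without the 2 stroma-marker cells. Rlim, the only member of the X inactivation list on the plate, was within the limit at -1.03 (interval -1.11 to -0.94).

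Markers of other cell types were not read as groups. None of the 10 immune, 8 endothelial, 6 erythroid, 4 theca or 5 muscle and pericyte markers on the plate passed as read, and none of the 13 stroma markers. No somatic cell held an erythroid read. Ptprc, the common leukocyte antigen, had reads in 2 of 19 somatic cells and Cdh5, of endothelial junctions, in 3 of 19. Dcn, a stroma proteoglycan, had reads in 3 of 19 somatic cells, at up to 5218 CPM, and its log2 ratio of -7.50 (interval -8.71 to -6.51) was -0.85 without the 2 stroma-marker cells. Col1a2 had reads in 5 of 19 somatic cells and none in oocytes.

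Oocyte transcripts were found in somatic cells as well. Dppa3 had reads in 10 of 19, Ooep in 9 of 19, Kit in 9 of 19, Sohlh1 in 8 of 19 and Oas1c in 7 of 19 somatic cells, whereas Dazl, Gja4 and Cd9 had reads in 1 each. The ratio of these genes was not alike in the 2 groups: Ooep and Dazl stood at 2324 CPM and 718 CPM in the oocytes' sum and at 192.7 CPM and 1.97 CPM in that of the somatic cells. Dazl, Dppa3 and Sohlh1 were among the genes of the study's oocyte score, and Ooep, Gja4 and Cd9 were not. The part of that filter in these reads was not tested. The paper proposes that such reads may stem from oocyte RNA released into the medium, which was not tested here. In the opposite direction, Inha had reads in 4 oocytes at 22.1 to 153.4 CPM and Sparc in 2.

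**Figure D4:**
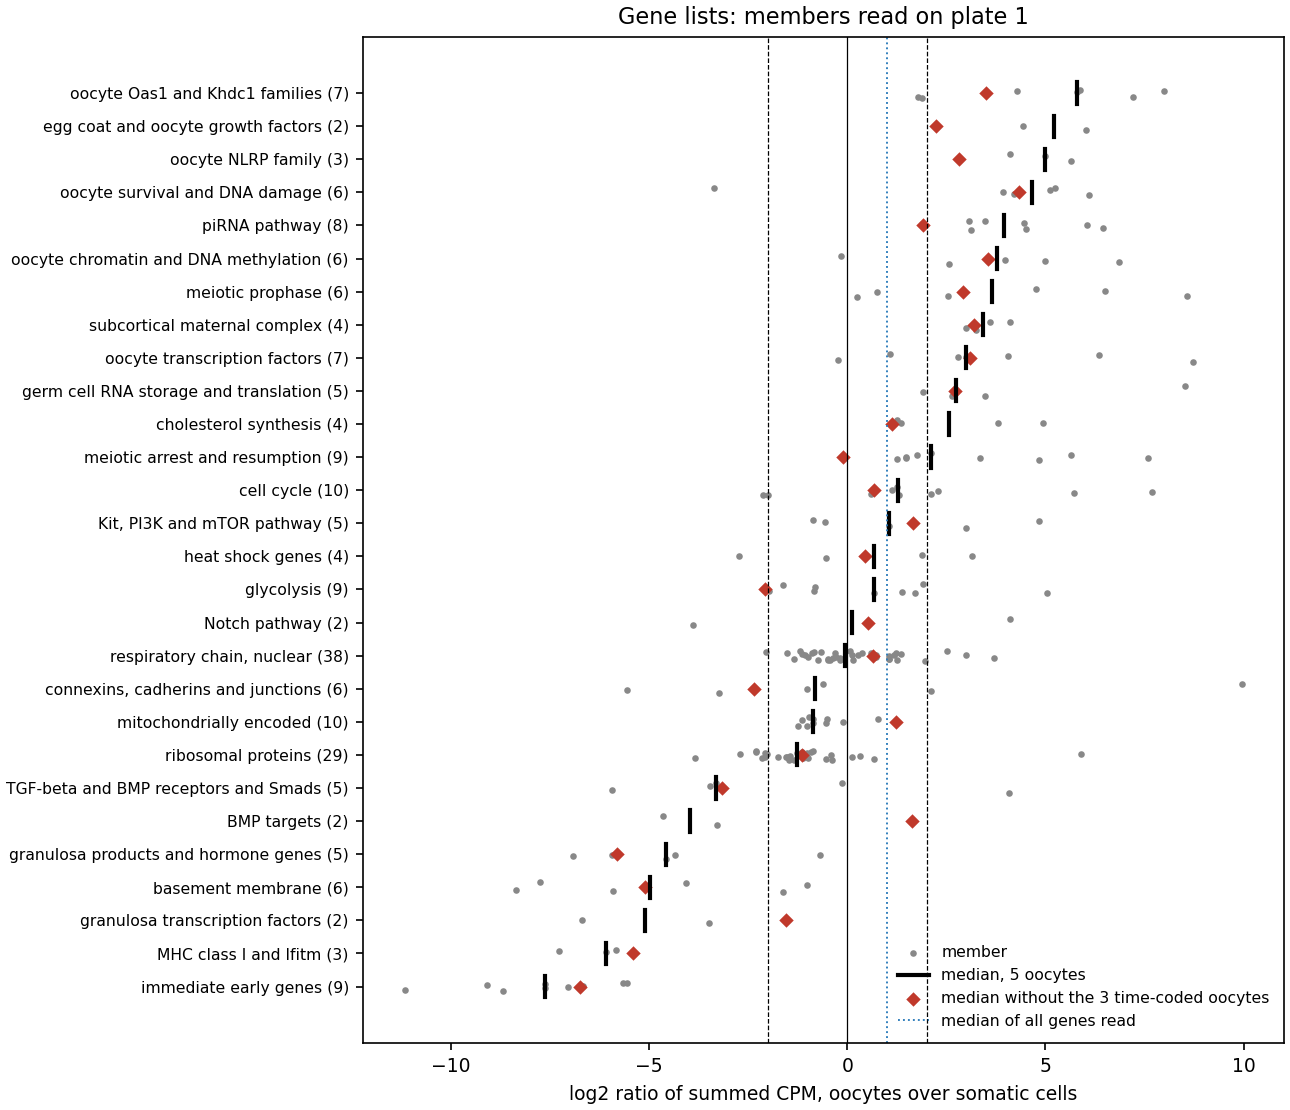
Log2 ratio of summed CPM, oocytes over somatic cells (horizontal), for the read members of each gene list (rows, number of read members in brackets). Grey points are members, black bars the median with 5 oocytes, red diamonds the median without the 3 time-coded oocytes, the dotted line the median of all read genes at 1.01 and dashed lines the 4-fold limit. Immediate early genes have a median of -7.61 and the Oas1 and Khdc1 families of 5.80.

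Without the 3 time-coded oocytes, 3266 genes were read. Of these 1210 (37%) were at least 4-fold higher in the 2 remaining oocytes and 362 (11.1%) in somatic cells, and the median of all read genes was 1.11. The immediate early, MHC class I, granulosa product and basement membrane lists kept their side, with medians of -6.75, -5.41, -5.80 and -5.09. The median of granulosa transcription factors came within the limit at -1.55. It rested on Nr5a1, a weaker bound with no oocyte count, and on Sox4, with oocyte reads in oocyte 1 alone. Lists of the oocyte kept their side at smaller values in the piRNA, Oas1 and Khdc1, NLRP, and egg coat lists, and at nearly the same value for transcription factors, RNA storage, the subcortical maternal complex and chromatin. The medians of meiotic arrest, BMP targets, the WNT pathway, glycolysis, the respiratory chain and the mitochondrially encoded genes turned sign. Without the 2 stroma-marker cells, 4092 genes were read, 1527 (37.3%) at least 4-fold higher in oocytes and 432 (10.6%) in somatic cells.

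The same contrast could be read on plates 2, 4, 5 and 6, whose gene sets overlapped with plate 1 only in part and whose cells were mostly of other stages, so the values are set side by side. Of the 1431 genes higher in oocytes, 299 were read on plate 2, where 44.5% were at least 4-fold higher in its 8 oocytes than in its 32 somatic cells and 5.69% were lower. The corresponding shares were 45.97 and 3.28% of 335 on plate 4 (15 oocytes, 16 somatic cells), 39 and 1.76% of 341 on plate 5 (10 and 66) and 42.5 and 5.66% of 318 on plate 6 (13 and 12). Of all genes read there, 24.8, 21.3, 18.8 and 21.1% were at least 4-fold higher in oocytes. Of the 384 genes higher in somatic cells, 43.5% were read on plate 2, and 78.4% of those were at least 4-fold higher in its somatic cells and 3 genes in its oocytes. Plate 4 read 41.2%, of which 74.7% were higher in somatic cells and 1 gene in oocytes, plate 5 read 38.8% with 73.8% and no gene, and plate 6 read 35.4% with 83.1% and 2 genes. The shares among all genes read were 26.5, 26.2, 16.9 and 23.6%.

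Plate 5 alone allowed a contrast within the primordial stage, of 1 oocyte against 21 somatic cells. There 190 of 379 read genes of the oocyte side (50.1%) were at least 4-fold higher in the oocyte and 4 lower, against 28.5% of all genes read. On the somatic side 60 genes, 37.7% of those read, were at least 4-fold higher in somatic cells and 1 lower, against 10.3% of all. Dazl had a log2 ratio of 7.72 on plate 2, 10.40 on plate 4, 8.34 on plate 6 and 2.92 in the primordial cells of plate 5, where 10 of 21 somatic cells held reads of it. Inha was at -10.60, -13.64, -9.79 and -3.86, and Jun at -8.86, -11.09, -8.26 and -1.92 in the same order. The single primordial oocyte of plate 5 held Jun at 1532 CPM, against 0 to 120 CPM in the oocytes of plate 1. Rpl10l had no somatic read on plates 2, 4 and 6 and reads in 5 of 21 primordial somatic cells of plate 5.

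**Figure D5:**
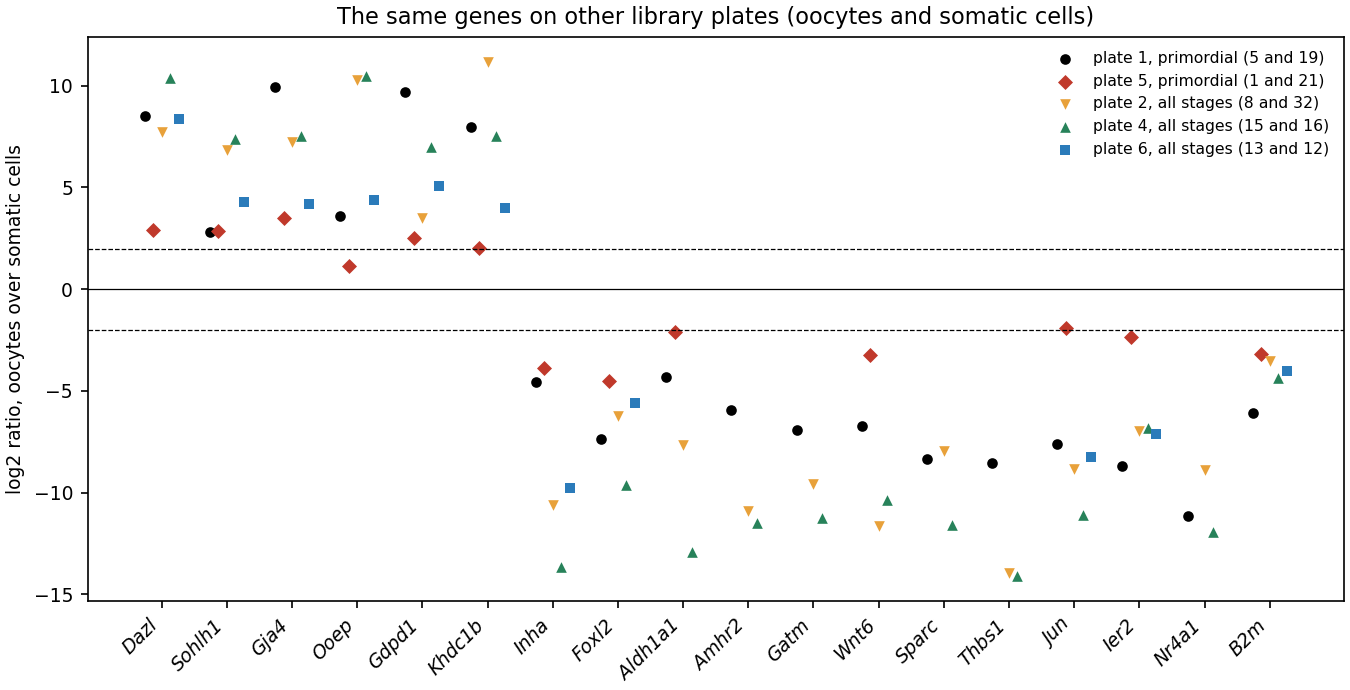
Log2 ratio of summed CPM, oocytes over somatic cells (vertical), for named genes on plate 1 and on the other plates that list them (1 color and shape a plate, number of oocytes and somatic cells in brackets, dashed lines at the 4-fold limit). Genes higher in oocytes on plate 1 lie above 0 and genes higher in somatic cells below 0 on each plate drawn, with values nearer to 0 in the primordial cells of plate 5, such as 2.92 for Dazl and -3.86 for Inha.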

How the data were processed

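Single oocytes and single somatic cells of CD-1 ovaries were read by SMART-Seq2. The mouse assembly GRCm38 was used by the authors for alignment, and they deposited 1 table of estimated counts per gene and cell with a table of cell metadata, which holds time and plate codes and quality shares as fractions. The submitters' processing notes name GRCm38, mm10 and Seurat 4, and the counting tool is not given in the sources used here. Of the deposited counts above 0 on plate 1, 21.9% were not whole numbers. A blank was taken as no value, so 6589 genes were without values on plate 1 and 18533 had them. The 27 rows with a date in place of a gene name, 0.0434% of the counts, were left out.

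Groups came from the sample titles and plates from the metadata. Within each group the cells' counts were added up, rounded only for the binomial split that gave the 95% intervals, and divided by the sum over all genes with values. A gene was read where 50% or more of the cells of either group carried reads and their summed CPM reached 20, and past the limit at a log2 ratio of 2 or more in size (4-fold). A sum of 0 was set to 3 counts, with no ratio where both groups had 3 or fewer. Intervals and floors cover counting error only, since the reads carried no molecular identifiers. No test across cells was run, no doublet caller was used on these hand-picked cells, and all other genes stayed in the fit of scale factors.

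Named were the 5 markers, members of 39 gene lists (those with the highest CPM or largest ratio, and defining markers at 0) and the 15 highest and 15 lowest log2 ratios among read genes without clone names, ranked with both sums floored at 3 counts. Of these, 1 gene is not reported here. The members and lists were chosen with earlier results of these data known. Promoters were RefSeq windows of 250 bases before and 50 after the start, gene positions GENCODE M21, and motif shares exact binomial.

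Alternatives were the mean of single-cell CPM, scaling by TMM in edgeR 4.0.16 or, on rounded counts, by the median of ratios in DESeq2 1.42.0, thinning to 12000 counts, other minimums, a 2-fold limit, totals over the 13266 genes listed on every plate, no clone names, and cells left out. The last choice, cells left out, includes 2 sets that were added after seeing the data. The ratio script was tested on simulated data. Python 3.11.15 with numpy 2.4.6, pandas 2.3.3 and scipy 1.17.1, and R 4.3.3 were used.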

Additional observations from a re-analysis of the deposited data

Results flagged for a closer look

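Single oocytes stood far from the other 4 in 25 of the 110 measures checked, by the gap to the nearest oocyte as a share of the range (above 0.71). Chance flags about 1 in 20 groups of this size, and genes near 0 in most oocytes pass whenever 1 cell holds a few reads. Oocyte 1 stood apart in its mitochondrial share of 17.9% and its intronic share of 27.9%, and in mt-Co1 (26662 CPM), Cox8c (191.6 CPM), Sox4 (169.5 CPM), Bambi (176.9 CPM), Sparc (117.9 CPM), Ippk (73.7 CPM, the lowest) and Fdft1 (152.7 CPM, the lowest). Oocyte 5, with 8352 counts, stood apart in Sycp3 (2275 CPM), Khdc1c (752 CPM), Gatm (239.5 CPM), Ier2 (120 CPM) and B2m (120 CPM). Oocyte 4 did so in Hspg2 (190 CPM), Lss (146.2 CPM), Fos (120.9 CPM), Gja1 (99.3 CPM) and Thbs1 (45.1 CPM). Oocyte 2 held the high value of Amhr2 (38.9 CPM), H2-D1 (33.9 CPM), Dcn (16.4 CPM) and Lama1 (10.2 CPM), and oocyte 3 that of Col4a2 (42.8 CPM) and Ifitm2 (6.11 CPM).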

How the results depend on the processing

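No paired analysis was possible because no test was run and the replicate numbers of single cells in the titles link no oocyte to a somatic cell. The 1431 genes higher in oocytes, 35.1% of those read, became 2295 (52.98%) with TMM factors. The 384 genes higher in somatic cells, 9.42% of those read, became 3.81% with TMM factors, 6.71% with cells thinned to 12000 counts (which left out oocyte 5), 2220 genes (27.1%) with no minimum, 701 (15.1%) with reads asked in 25% of cells and 778 (19.1%) at a 2-fold limit. With no minimum 2109 were higher in oocytes, so 48.7% of calls were on that side against 78.8%. Fewer or more genes pass as read under a minimum, and the cause of the other shifts was not tested. Leaving out each oocyte in turn gave 1468 to 1560 genes (35.6 to 36.4%) and 346 to 471 genes (8.23 to 11.1%).

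Without the 3 time-coded oocytes, log2 ratios reversed for Ccnb1 (-0.11), Ddx4 (-0.62), Khdc3 (-0.18), Mael (-0.54), Ndufv1 (-0.062) and Sox4 (0.052), as did the medians of meiotic arrest and resumption (-0.11) and BMP targets (1.63). With only oocyte 1, whose plate code the somatic cells share, the values were -0.76 for Ccnb1, -2.12 for Ddx4, -0.094 for Khdc3, -2.96 for Mael, -0.60 for Ndufv1, 0.14 for Sox4, -1.52 for Hsph1 and 1.72 for BMP targets. This setting and the one without 2 somatic cells were chosen after seeing the data. The surface epithelium median reversed to -2.35 with no minimum, where 1 member had been read before. Of the printed ratios and medians under all settings, 1536 and 460 moved by less than the spread between the oocytes. The others, apart from those just named, moved by more. Results within the 4-fold limit were judged by that spread alone, and 15 such ratios (among them Lama2, Gpi1, Aldoa, Lamb1 and mt-Co1) and 8 such medians turned sign under at least 1 setting. These medians were those of the Notch and WNT pathways, X inactivation, junctions, glycolysis, heat shock, the respiratory chain and the mitochondrially encoded genes. None of the 19 somatic cells had a metadata stage that differed from its title, so that alternative gave no value. Depth limits oocyte 5 most, where 1 count is 120 CPM.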

Other observations

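A further 14455 genes with values on plate 1 were not read in either group. Of the read genes, 412 had no count in one of the groups, and their ratios are bounds. Another 254 carried clone names and were left out of the named genes. The 4-fold limit had 4.17% of the read genes with a log2 ratio of 2.0 to 2.2 in size just past it and 4.24% with 1.8 to 2.0 just short of it.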
